A study of Mus musculus with 18 samples.

Results

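Basophils from mice with loxP-flanked (floxed) Cebpa, cultured without any drug, were compared with basophils from mice with the normal gene cultured in the same way. The comparison takes 6 of the 18 arrays of the study, 3 from untreated floxed and 3 from untreated wild type cells, chosen by the genotype and treatment in the sample labels. The tested cells were labelled Cebpa f/f RosaYFP/creER, and the others Cebpa +/+ RosaYFP/creER. Both genotypes were C57Bl/6 and carried a Cre recombinase that 4-hydroxytamoxifen activates, together with a yellow fluorescent reporter, so Cre was present on both sides and its activating drug on neither. Basophils of both were purified and kept for 5 days in medium with 20 ng/ml interleukin-3. The labels do not give the sex or age of the mice, the number of mice or cultures behind the 3 arrays a side, or the share of cells with a recombined allele. A further 6 arrays, from the same genotypes with 100 nM 4-hydroxytamoxifen for 5 days, were read beside them; the remaining arrays held freshly purified basophils and mast cells.

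C/EBPα, the protein of Cebpa, is a transcription factor that binds DNA as a dimer and is known for directing progenitors into the granulocyte and monocyte lineages, in part by slowing cell division. Basophils are rare granulocytes that carry the IgE receptor, store histamine and proteases and depend on interleukin-3. Interferon-stimulated genes are a separate programme: interferons bound to their receptor activate transcription factors that bind an interferon-stimulated response element in the promoters of antiviral genes.

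Of the gene lists examined, the interferon-stimulated genes had the most members lower in untreated floxed cells. Shown here are 4 of their promoters, all with a match to a sequence feature that many but not all members hold. The list holds genes known to answer interferon, which acts through this element, so a high share of matches may follow from how it was made. The sequences are the 130 bases before the annotated start of each gene in RefSeq (build GRCm38.p6), 5′ to 3′ on the gene's strand, with matches to the core of the response element in capitals. The core was searched as GAAANNGAAA on either strand, matches that overlap included. Ifit1 lies on the plus strand (chr19:34640759-34640888), Rsad2 on the minus strand (chr12:26456453-26456582), Isg15 on the minus strand (chr4:156200819-156200948) and Igtp on the plus strand (chr11:58199426-58199555).
Ifit1: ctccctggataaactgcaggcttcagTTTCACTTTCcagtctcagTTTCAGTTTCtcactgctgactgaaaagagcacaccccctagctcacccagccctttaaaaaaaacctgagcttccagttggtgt
Rsad2: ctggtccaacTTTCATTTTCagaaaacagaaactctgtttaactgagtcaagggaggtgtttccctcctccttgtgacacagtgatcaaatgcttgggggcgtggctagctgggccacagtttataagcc
Isg15: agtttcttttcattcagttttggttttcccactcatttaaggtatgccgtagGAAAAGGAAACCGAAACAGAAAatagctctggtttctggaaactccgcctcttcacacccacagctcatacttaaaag
Igtp: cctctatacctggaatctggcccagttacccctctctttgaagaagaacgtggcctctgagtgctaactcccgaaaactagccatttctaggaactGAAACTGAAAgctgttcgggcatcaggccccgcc
Windows of 250 bases before to 50 bases after the start were searched for every gene with a RefSeq promoter entry. Of 32851 promoters, 1131 (3.44%) held a match, and of the 14967 measured genes with an entry, 545 (3.64%) did. Of the 29 measured interferon-stimulated genes with an entry, 16 (55.2%) held one. The share was 3 of 16 for interferon receptors and signalling genes, 0 of 10 for macrophage markers, 1 of 19 for cell cycle genes and 0 of 18 for DNA replication genes. A match is a description of the letters and not evidence of binding.

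Values are intensities of a single-dye array that look background-subtracted, quantile normalized over the 12 arrays of cultured basophils. They have no unit and do not compare one gene's level with another's. Each bracket gives the log2 fold change of untreated floxed over untreated wild type cells, ± SE, from limma with Benjamini-Hochberg adjustment over 26423 probes. A gene passed the test at an adjusted p under 0.05. Intensities under 30 on all 3 arrays of a group were taken as background, and a fold against such a group is given as a lower bound. Pairs of arrays within a group correlated across probes at 0.990 to 0.992 for untreated floxed and 0.993 for untreated wild type cells. Median probe intensity before normalization was 30 to 32 on the untreated floxed and 37 to 39 on the untreated wild type arrays. Since no label says that the 3 replicates of a group were separate animals or cultures, the p-values cover the spread between these arrays alone, and that spread may be technical. An exact permutation test of 3 arrays against 3 cannot give a two-sided p below 0.10, and was not used.

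Cebpa itself was lower in the untreated floxed cells although no drug had been added. It was read at 1019, 903 and 926 in untreated floxed cells, against 2219.4, 2532.9 and 2166 in untreated wild type cells. Every floxed array lay below every wild type array, with means of 949 ± 61.3 and 2306.1 ± 198 (SD, n = 3 each), a 2.40-fold lower level (-1.26 ± 0.10, adjusted p = 4.67e-06). Cultures given the drug read 68.7, 69 and 57.5 when floxed and 2893.8, 2746.4 and 2471.5 when wild type. The genotype difference was therefore larger with the drug, by a log2 difference of -3.80 (interaction adjusted p = 3.04e-08). Whether the probe lies inside the floxed stretch is not stated in the material used, and the arrays do not tell whether every untreated floxed cell had less Cebpa RNA or some had none.

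Of the other members of the C/EBP family, which can pair with C/EBPα, 3 of 5 were lower, 1 higher and Cebpd did not pass (0.30 ± 0.16, adjusted p = 0.263). Cebpb read 547, 708 and 696 in untreated floxed cells and 974, 913 and 890 in untreated wild type cells (-0.51 ± 0.12, adjusted p = 0.0138). The stress-induced inhibitory member Ddit3 was 1.53-fold lower (-0.61 ± 0.087, adjusted p = 0.000412), and Cebpg was lower (-0.45) without the drug and higher with it (0.61, interaction adjusted p = 0.00102). Cebpe, a factor of late granulocyte maturation, was the one that was higher, at 254, 280 and 287 in untreated floxed cells and 168, 175 and 196 in untreated wild type cells (0.57 ± 0.12, adjusted p = 0.00526). Under median scaling of the arrays Cebpb, Cebpg and Ddit3 no longer passed. Cebpb also lost its call without wild type replicate 1 (adjusted p = 0.0571), and Cebpg without floxed replicate 3 or wild type replicate 2 (adjusted p = 0.0677 to 0.0777).

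**Figure D1:**
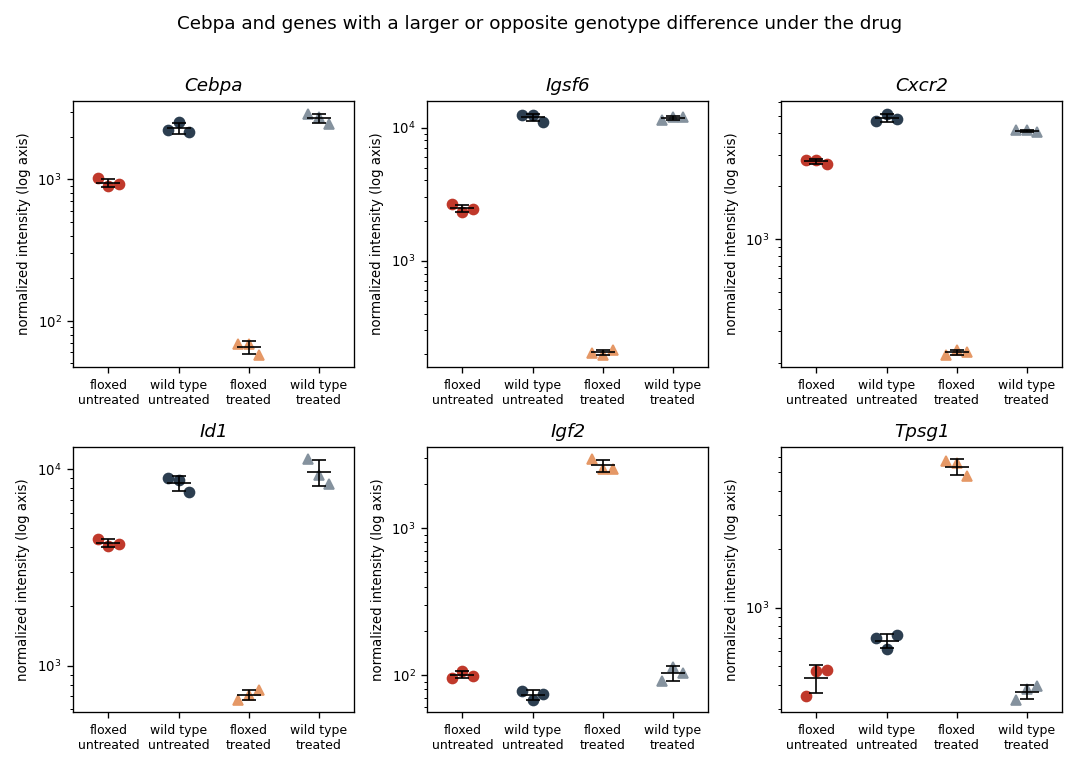
Normalized intensity (log axis) on each of 3 arrays a group, with the mean and SD in black, for Cebpa and 5 genes, in floxed and wild type basophils without the drug (circles) and with it (triangles). Cebpa, Igsf6, Cxcr2 and Id1 of untreated floxed cells lie between treated floxed and wild type cells; Igf2 and Tpsg1 are highest in treated floxed cells.

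Several genes lay, like Cebpa, between the wild type and the treated floxed level in untreated floxed cells, as the plot of Cebpa and 5 further genes shows. Igsf6, an immunoglobulin superfamily gene of myeloid cells, read 2643.5, 2327.7 and 2434.7 in untreated floxed cells and 12405.4, 12405.4 and 11030.8 in untreated wild type cells (-2.27 ± 0.085, adjusted p = 1.21e-08), and 204, 196 and 213 in treated floxed cells. Cxcr2, a chemokine receptor of neutrophils, read 2810, 2794.1 and 2645.2 in untreated floxed cells and 4680.5, 5132.2 and 4764.5 in untreated wild type cells (-0.82 ± 0.076, adjusted p = 1.52e-05), and 221, 235 and 228 in treated floxed cells. Id1, an inhibitor of helix-loop-helix transcription factors, was 2.02-fold lower without the drug (-1.01 ± 0.11, adjusted p = 7.25e-05) and 13.3-fold lower with it. All 3 passed the interaction, at -3.47 for Igsf6, -3.26 for Cxcr2 and -2.72 for Id1 on the log2 scale. Igsf6 was named by the size of its interaction. All 3 were shown for their lower level in treated floxed cells, so passing was no separate result. Of the 1508 genes lower without the drug, 299 passed the interaction with a larger difference under it.

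Across all probes, 2121 were higher (8.03%) and 1806 lower (6.83%) in untreated floxed cells. Those at least 2-fold different numbered 174 higher and 299 lower. Of 19084 named genes, each represented by its brightest probe, 1792 were higher (9.39%) and 1508 lower (7.90%), and the median log2 fold change over all of them was 0.0024. Of the 3927 probes past the test, 54.0% were higher. That split depended on the scaling, with 73.1% higher under median scaling, 33.6% without normalization between arrays and 45.1% with scaling on probes above background on every array. The median over all probes moved to 0.07 under median scaling and to -0.08 without normalization, against 0.0012 as normalized here. With the drug, 3400 genes were higher (17.8%) and 3093 lower (16.2%), and the interaction between genotype and drug was passed by 1223 genes with a positive value (6.41%) and 1255 with a negative one (6.58%).

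**Figure D2:**
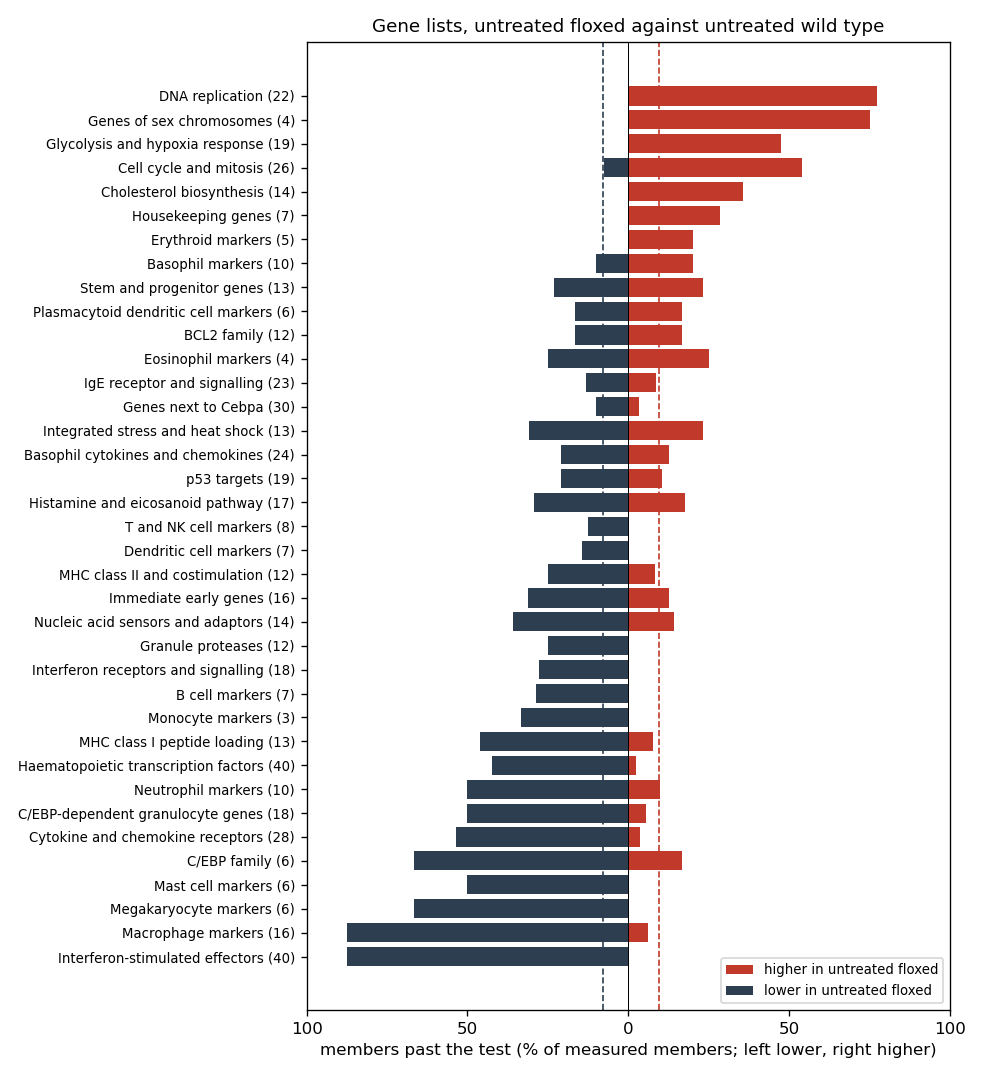
Share of the measured members of each gene list that passed the test, with higher in untreated floxed cells to the right and lower to the left; the number of measured members is in brackets, and the dashed lines are the shares over all genes (9.39% higher, 7.90% lower). Interferon-stimulated effectors and macrophage markers reach furthest left, and DNA replication, sex chromosome, glycolysis and cell cycle genes furthest right.

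The interferon-stimulated genes, most of them effectors against viruses, were lower together. Of 40 measured, 35 passed as lower and 0 as higher, with a median log2 fold change of -1.49 against 0.0024 over all genes. Their summed intensity was 23436.1 to 25107.7 on the untreated floxed arrays and 80536.4 to 81760.8 on the untreated wild type arrays. All 35 had arrays that did not overlap between the groups, as had 1496 of the 1508 genes that passed as lower. Of the 35, 32 were at least 2-fold and 14 at least 4-fold lower. The count that passed as lower was 34 to 37 when any 1 array was left out. It was 36 or 37 under the 3 other scalings tried (median scaling, no normalization between arrays and scaling on bright probes).

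Ifit1, which binds foreign 5′ RNA ends, had the largest fall of any gene by the rule used for naming. It read 62.9, 41.9 and 61.3 in untreated floxed cells and 1193.9, 1174.5 and 1189.9 in untreated wild type cells, a 17.0-fold lower level (-4.09 ± 0.14, adjusted p = 6.42e-09). The related Ifit2 read 44.6, 55.1 and 55.1 in untreated floxed cells and 498, 465 and 443 in untreated wild type cells (-2.84 ± 0.088, adjusted p = 3.12e-09). Rsad2, the antiviral enzyme viperin, read 544, 671 and 647 in untreated floxed cells and 4673.3, 4666 and 5170.1 in untreated wild type cells (-2.93 ± 0.10, adjusted p = 7.61e-09). Cmpk2, a nucleotide kinase gene that lies beside Rsad2, read 732, 623 and 659 in untreated floxed cells and 4668, 4726.2 and 4652.4 in untreated wild type cells (-2.78 ± 0.088, adjusted p = 3.21e-09). No array of either group overlapped the other for these 4 genes. The rule for naming the lowest genes required this, so it was no separate result. Isg15, a ubiquitin-like protein that is attached to other proteins, read 438, 420 and 446 in untreated floxed cells and 2837.1, 2932.5 and 3003 in untreated wild type cells (-2.71 ± 0.077, adjusted p = 1.92e-09).

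Other classes of effector moved the same way. The 2′-5′ oligoadenylate synthetase gene Oas2 was 3.98-fold lower and the related Oasl1 6.15-fold lower. Zbp1, a sensor of left-handed nucleic acid, was 5.78-fold lower (-2.53 ± 0.12) and Slfn5, of the schlafen family, 5.19-fold lower (-2.38 ± 0.096). The GTPases of intracellular defence were lower by less, with -1.66 for Igtp, -1.76 for Ifi47, -1.32 for Irgm1 and -1.12 for Gbp2 on the log2 scale. Bst2, which tethers budding virus, was bright in both groups, at 9156.3, 7278.1 and 7507.2 in untreated floxed cells and 17659.6, 17259.2 and 15995 in untreated wild type cells (-1.09 ± 0.10, adjusted p = 1.97e-05). The chemokine Cxcl10 read 25.5, 52.9 and 35.9 in untreated floxed cells and 196, 218 and 273 in untreated wild type cells (-2.20 ± 0.19, adjusted p = 7.4e-06). Ifi27l2b, a relative of the listed Ifi27l2a that was named by its size of change alone, read 368, 447 and 406 in untreated floxed cells and 4072.2, 3989 and 4496.8 in untreated wild type cells (-3.31 ± 0.097, adjusted p = 1.92e-09).

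The 5 interferon-stimulated genes that did not pass were Mx2, Oas1g, Oas3, Xaf1 and Slfn1. Mx2 read 28.3, 11.8 and 18.9 in untreated floxed cells and 96, 89.8 and 2302.7 in untreated wild type cells, with 1 wild type array far above the rest of its group (-3.11 ± 1.30, adjusted p = 0.149). Oas1g lay at background in both groups. Xaf1 and Oas3 had values of -0.49 ± 0.17 and -0.33 ± 0.11, and Slfn1 of -0.35 ± 0.25.

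Regulators of the response were measured as a list of their own. Of 18 measured receptors and signalling genes, 5 were lower and 0 higher, with a median of -0.17 that turned to 0.0089 under median scaling. Irf7, which amplifies interferon production, read 1977.9, 2611.5 and 2533.5 in untreated floxed cells and 10572.8, 10242.2 and 10813.9 in untreated wild type cells (-2.15 ± 0.12, adjusted p = 2.53e-07). Usp18, which removes ISG15 and dampens the receptor, was 4.47-fold lower (-2.16 ± 0.13), Stat2 2.88-fold lower (-1.53 ± 0.10) and Irf9 2.37-fold lower (-1.24 ± 0.081). Socs1, a feedback inhibitor, was 1.33-fold lower (-0.41 ± 0.090) and lost its call under median scaling. Neither receptor chain of the type I interferons passed: Ifnar1 read 79.8, 74.7 and 74.3 in untreated floxed cells and 85.2, 106 and 84.3 in untreated wild type cells (-0.22 ± 0.091, adjusted p = 0.146), and the probe of Ifnar2 lay at background on all 6 arrays.

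None of the 5 measured interferon ligands passed limma's test, and 0 of them had an unadjusted p under 0.05. Ifnb1, which encodes interferon beta, read 16.9, 23.6 and 14.8 in untreated floxed cells and 19.8, 23.6 and 37.4 in untreated wild type cells, and Ifng was at background on all 6 arrays. Among 14 nucleic acid sensors and adaptors, 5 were lower and 2 higher. Adar, an RNA-editing enzyme, was 2.03-fold lower (-1.02 ± 0.11) and the DNA exonuclease Trex1 2.03-fold lower (-1.02 ± 0.10). The endosomal RNA receptor Tlr7 was at least 2.21-fold lower (-0.94 ± 0.14), and Unc93b1, which carries such receptors to endosomes, was lower by a smaller amount (-0.43 ± 0.091) that did not pass under median scaling. The endosomal DNA receptor Tlr9 passed as higher (0.39 ± 0.11, adjusted p = 0.0363) but was at background on all 6 arrays and lost its call in 11 of 16 alternatives. Ikbke, a kinase of the pathway, was higher at 798, 793 and 786 in untreated floxed cells and 557, 592 and 606 in untreated wild type cells (0.43 ± 0.077, adjusted p = 0.00235).

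**Figure D3:**
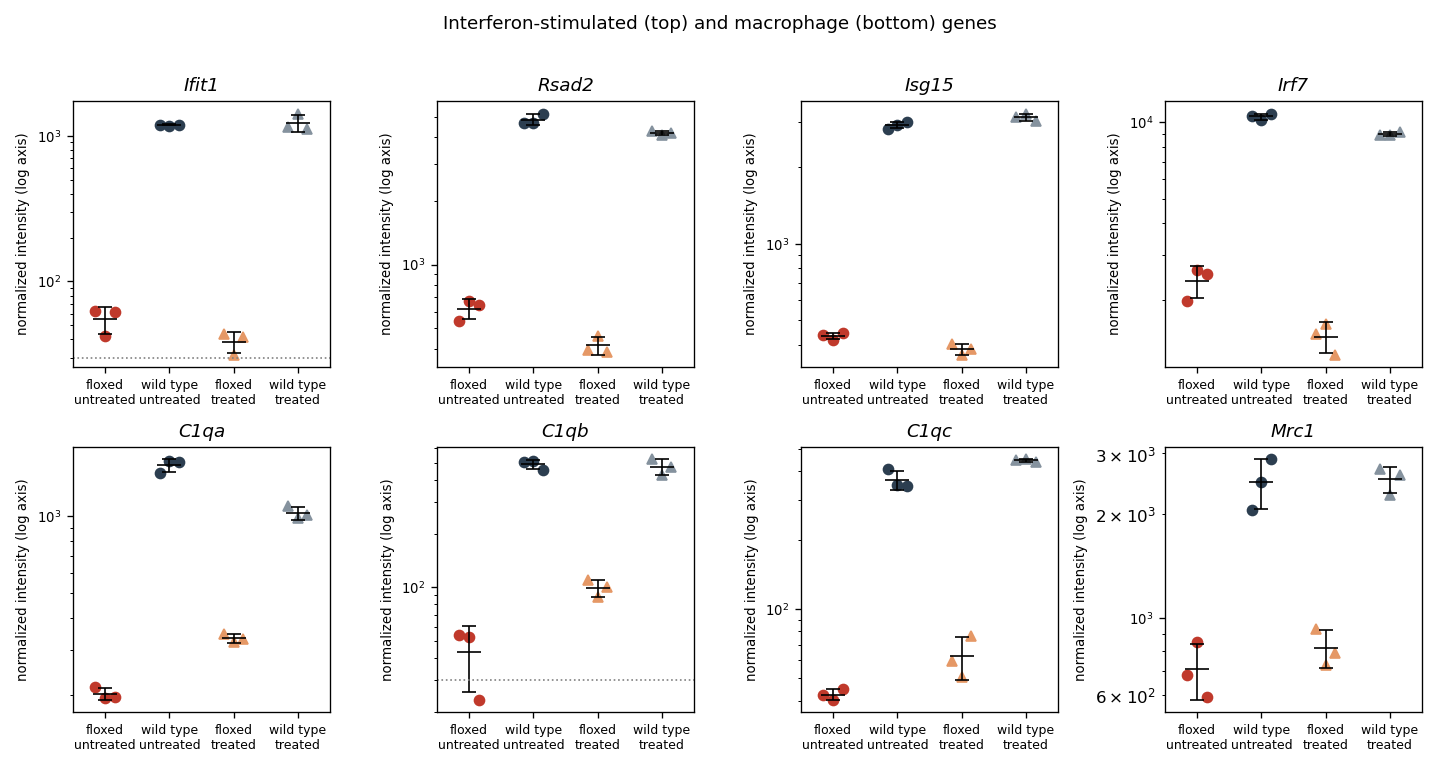
Normalized intensity (log axis) on each of 3 arrays a group, with the mean and SD in black, for the interferon-stimulated genes Ifit1, Rsad2, Isg15 and Irf7 (top) and the macrophage genes C1qa, C1qb, C1qc and Mrc1 (bottom). Floxed arrays lie below wild type arrays both without the drug (circles) and with it (triangles); a dotted line, where drawn, marks the background limit of 30.

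The interferon-stimulated genes also differed with the drug, on arrays not used in the untreated comparison. Both comparisons share the normalization and the fit, and no label says whether treated and untreated cultures came from the same mice. In treated cells 34 of the 40 were lower and 1 higher in floxed cells, with a median of -1.76, and 34 were lower in both comparisons. Ifit1 read 43.4, 31.3 and 41.2 in treated floxed cells and 1157.2, 1421.3 and 1110.3 in treated wild type cells, and its interaction was -0.42 ± 0.20 (adjusted p = 0.215). Of the 35, 7 passed the interaction. Slfn5 and Cxcl10 differed less with the drug, and Ifi27l2a, Dhx58, Gbp2, Iigp1 and Irgm1 differed more. Cebpa differed 2.40-fold without and 33.6-fold with the drug, and Ifit1 17.0-fold and 22.8-fold. These folds cannot be set against each other, because Ifit1 was already dim in untreated floxed cells, at 62.9, 41.9 and 61.3. Near background a further fall can hardly show, and fold changes on this scale understate the change of dim genes. This limit is that of dim members, and brighter ones went both ways. Bst2 differed by -1.09 without and -0.98 with the drug (interaction adjusted p = 0.699 by limma). For Gbp2 the values were -1.12 and -1.74 (interaction adjusted p = 0.00665). Whether the interferon-stimulated genes followed the level of Cebpa was not tested.

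Markers of macrophages were also lower. Of 16 measured, 14 were lower and 1 higher, with a median of -1.33, and their summed intensity was 12046.0 to 13532.7 on untreated floxed and 17695.0 to 19224.5 on untreated wild type arrays. Axl, Cd68 and Hmox1, counted among the 14, lost their calls under median scaling, and Axl also when all 18 arrays were fitted. In bulk RNA, fewer cells of a type and less RNA per cell cannot be told apart. The 3 chains of complement C1q, which macrophages secrete, were among the 12 named genes lowest in untreated floxed cells. C1qb read 54, 52.9 and 23.2 in untreated floxed cells and 502, 507 and 455 in untreated wild type cells (-3.13 ± 0.19, adjusted p = 4e-07), and C1qa 216, 195 and 197 in untreated floxed cells and 1478.4, 1635 and 1632.8 in untreated wild type cells (-2.87 ± 0.084, adjusted p = 1.92e-09). C1qc read 42.4, 40.1 and 44.8 in untreated floxed cells and 407, 349 and 344 in untreated wild type cells (-2.71 ± 0.12, adjusted p = 3.04e-08). For each chain the highest floxed array lay below the lowest wild type array, which the rule for naming the 12 lowest genes required.

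The mannose receptor Mrc1 was 3.44-fold lower (-1.78 ± 0.16, adjusted p = 8.82e-06), and the adhesion molecule Vcam1, carried by macrophages of blood-forming tissue, 3.10-fold lower (-1.63 ± 0.090). Csf1r, the receptor on which macrophages depend, read 502, 560 and 450 in untreated floxed cells and 1131.5, 1376.4 and 1402.5 in untreated wild type cells (-1.34 ± 0.11, adjusted p = 5.51e-06). The iron exporter Slc40a1 was 2.54-fold lower, the apoptotic cell receptor Mertk 2.17-fold lower, and the haemoglobin scavenger receptor Cd163 at least 2.64-fold lower. Adgre1, which encodes the macrophage antigen F4/80, went the other way, at 5268.4, 6415.5 and 6327.9 in untreated floxed cells and 3346.7, 3124.8 and 3402.1 in untreated wild type cells (0.86 ± 0.12, adjusted p = 0.000282). With the drug Adgre1 was lower in floxed cells (-1.19, interaction -2.05). Fcgr1, counted among the 14, was at background on all 6 arrays, and Spic, a factor of iron-recycling macrophages, did not pass (-0.45 ± 0.23, adjusted p = 0.261). Macrophages can express interferon-stimulated genes, and the part of these marker changes in the interferon result was not tested.

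Basophil identity markers summed over 10 genes to 223110.5 to 231170.6 on untreated floxed and 214268.6 to 233109.0 on untreated wild type arrays. The brightest probe of every array read 65465 or more, and Cd63 reached above 60000 on 5 of these 6 arrays, where a probe can show little further rise. Without Cd63, left out after its values were seen, the sums were 161056.9 to 166072.9 on untreated floxed and 165756.9 to 176466.8 on untreated wild type arrays, which again overlapped. Of the 10, 2 were higher and 1 lower, and the median of -0.014 turned positive under the 3 other scalings. The granule protease Mcpt8, a defining marker of mouse basophils, read 47633.2, 49516.7 and 47633.2 in untreated floxed cells and 49516.7, 45980.2 and 57785.2 in untreated wild type cells (-0.08 ± 0.11, adjusted p = 0.735). Neither the protease Prss34 (-0.22 ± 0.081, adjusted p = 0.104) nor the histamine-forming enzyme Hdc (0.05 ± 0.088, adjusted p = 0.807) passed. Fcer1a, the IgE-binding chain of the receptor, was higher at 18488, 17174.9 and 16512.2 in untreated floxed cells and 11254, 13765.2 and 10939.3 in untreated wild type cells (0.54 ± 0.10, adjusted p = 0.00331). Il4, the cytokine by which basophils favour type 2 responses, was 1.36-fold higher (0.44 ± 0.11, adjusted p = 0.0202), and Gata2, a factor basophils need, 1.26-fold lower (-0.34 ± 0.10, adjusted p = 0.0413). The call of Il4 was lost without floxed replicate 2 or 3 or wild type replicate 1 or 3 (adjusted p = 0.0608 to 0.0911). That of Gata2 was lost in 9 of 18 alternatives, 5 of them with an array left out (adjusted p = 0.0578 to 0.132).

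Markers of other cell types were checked over whole lists. Mast cell markers summed to 75534.3 to 76021.5 on untreated floxed and 76697.4 to 79699.3 on untreated wild type arrays, but 80.9% to 86.7% of each sum was Cpa3, a carboxypeptidase that read above 60000 on all 6 arrays. Without Cpa3, left out after its values were seen, the sums were 10063.3 to 10737.2 on untreated floxed and 13551.6 to 14643.8 on untreated wild type arrays. Of the 6 genes 3 were lower. These were the mast cell factor Mitf (-0.52 ± 0.081, adjusted p = 0.000807), the stem cell factor receptor Kit (-0.55 ± 0.10, adjusted p = 0.00327) and the chymase Cma1 (-0.50 ± 0.083, adjusted p = 0.00134), none of which passed under median scaling. All 3 were higher in floxed cells with the drug, at 1.97, 1.52 and 1.32, so their differences ran in opposite directions in the 2 comparisons. Neutrophil markers had 5 of 10 lower and 1 higher, and sums of 6126.7 to 6837.0 on untreated floxed and 12623.9 to 14309.5 on untreated wild type arrays. Megakaryocyte markers had 4 of 6 lower, led by the platelet chemokine Pf4 at 3750.3, 4599.9 and 4842.6 in untreated floxed cells and 9854.5, 9889.7 and 11497.4 in untreated wild type cells (-1.25 ± 0.13, adjusted p = 3.14e-05). B cell markers had 2 of 7 lower, T and NK cell markers 1 of 8, dendritic cell markers 1 of 7 and monocyte markers 1 of 3. Over all genes 9.39% passed as higher and 7.90% as lower, and 1 call in a list of 7 or 8 genes is near that share. Eosinophil markers had 1 higher (Prg2, 0.97 ± 0.079) and 1 lower (Siglecf, -0.69 ± 0.089) of 4, and erythroid markers 1 higher of 5. Plasmacytoid dendritic cell markers had 1 higher and 1 lower of 6, the lower one being Bst2, which is also interferon-stimulated, and their defining Siglech was at background on all 6 arrays.

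Genes of granulocyte maturation that are known to need C/EBP factors were lower in part. Of 18 measured, 9 were lower and 1 higher, with a median of -0.35; with the drug 15 were lower, with a median of -1.55. The iron-binding granule protein Ltf read 249, 246 and 241 in untreated floxed cells and 928, 840 and 826 in untreated wild type cells (-1.75 ± 0.093, adjusted p = 1.47e-07), and differed by -1.74 with the drug. Lcn2, a siderophore-binding protein, was 1.98-fold lower without the drug (-0.98 ± 0.091) and 4.74-fold lower with it. The neutrophil granule gene Ngp was 1.79-fold lower (-0.84 ± 0.090) and the alarmin S100a9, a neutrophil marker, 2.56-fold lower (-1.36 ± 0.11, adjusted p = 4.1e-06). Both differed more with the drug, with interactions of -1.05 and -1.39. Mpo, the myeloperoxidase of early granulocytes, did not pass (-0.26 ± 0.095, adjusted p = 0.0903). Under median scaling the members that passed as lower numbered 6.

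Transcription factors of blood cells had 17 lower and 1 higher of 40 measured, with a median of -0.28. Besides Id1 they included Id3 (-0.88 ± 0.10, adjusted p = 9.33e-05), Klf4, a factor of monocytes (-0.71 ± 0.19, adjusted p = 0.0222), and Nfil3, a circadian and lymphoid factor (-0.68 ± 0.082, adjusted p = 0.000124). Gfi1b, an erythroid and megakaryocytic repressor (-0.65 ± 0.090), and Lyl1, a stem cell factor (-0.58 ± 0.086), were lower too. Klf4 lost its call without replicate 2 or 3 of either group (adjusted p = 0.0684 to 0.0811), and Nfil3, Gfi1b and Lyl1 did under median scaling.

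Receptors for cytokines and chemokines were lower more often than higher, at 15 and 1 of 28, with a median of -0.47. Il18r1, a receptor chain for interleukin-18, read 1239.4, 1061.8 and 1119.2 in untreated floxed cells and 3465, 3708.3 and 3381.8 in untreated wild type cells (-1.61 ± 0.11, adjusted p = 1.35e-06). Ccr3, the eotaxin receptor, was 2.28-fold lower (-1.19 ± 0.13), the interleukin-7 receptor Il7r 1.96-fold lower (-0.97 ± 0.080) and the shared chain Il6st 1.98-fold lower (-0.98 ± 0.11). Il3ra, the specific chain of the receptor for the interleukin-3 in the medium, did not pass (0.15 ± 0.12, adjusted p = 0.485). Of 24 cytokines and chemokines, 5 were lower and 3 higher. Ccl2, which attracts monocytes, read 1354.3, 1766.8 and 1653 in untreated floxed cells and 6088.2, 5679.7 and 6529.4 in untreated wild type cells (-1.93 ± 0.13, adjusted p = 7.69e-07). Ccl6 was 1.98-fold lower (-0.99 ± 0.081) and Csf1, the ligand of Csf1r, 1.61-fold lower (-0.69 ± 0.10); Csf1 did not pass under median scaling. Lif, a cytokine of the interleukin-6 family, was 1.68-fold higher (0.75 ± 0.12, adjusted p = 0.00137).

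Effector pathways of basophils were counted next. In IgE receptor signalling 2 of 23 were higher and 3 lower, close to the 9.39% and 7.90% of all genes, with a median of -0.11 that turned to 0.115 under median scaling. Ms4a2, the beta chain of the receptor, was 1.75-fold higher (0.81 ± 0.093, adjusted p = 8.2e-05), while the kinase Syk was 1.55-fold lower (-0.64 ± 0.13, adjusted p = 0.0045) and did not pass under median scaling. In the histamine and eicosanoid pathway 3 of 17 were higher and 5 lower, with a median of -0.10 that turned to 0.143 under median scaling. Alox15, a lipoxygenase, read 124, 124 and 132 in untreated floxed cells and 477, 468 and 425 in untreated wild type cells (-1.73 ± 0.088, adjusted p = 1.11e-07). The serotonin transporter Slc6a4 was 2.10-fold lower (-1.07 ± 0.13), and Ltc4s, which makes leukotriene C4, 1.78-fold higher (0.83 ± 0.081).

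Granule proteases had 3 lower and 0 higher of 12, namely Mcpt2, Tpsg1 and Cma1. Antigen presentation by MHC class I had 6 lower and 1 higher of 13. Of the lower ones Tap1, Psme1 and Psme2 did not pass under median scaling. Nlrc5, the transactivator of that pathway, read 10.2, 30.2 and 30.7 in untreated floxed cells and 214, 192 and 215 in untreated wild type cells (-2.54 ± 0.22, adjusted p = 8.63e-06). The chaperone Calr was the one that was higher (0.95 ± 0.14). For MHC class II and costimulation 3 of 12 were lower and 1 higher, with a median of -0.11 that turned to 0.0058 under median scaling. The costimulatory ligand Cd86 was 2.05-fold lower (-1.04 ± 0.10, adjusted p = 1.98e-05) and Icosl 2.05-fold higher (1.04 ± 0.090, adjusted p = 8.26e-06).

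Genes of cell division and DNA synthesis were higher in the untreated floxed cells. Of 22 DNA replication genes 17 were higher and 0 lower, with a median of 0.54. Of 26 cell cycle and mitosis genes 14 were higher and 2 lower, with a median of 0.60. Cdc6, counted among the 17, was at background on all 6 arrays, as were 5 cell cycle genes that did not pass. Rrm2, a subunit of ribonucleotide reductase, read 1207.3, 1044.1 and 1125.6 in untreated floxed cells and 522, 570 and 524 in untreated wild type cells (1.04 ± 0.11, adjusted p = 4.35e-05). Lig1, which joins replicated DNA, read 1538.8, 1435 and 1444.4 in untreated floxed cells and 777, 678 and 728 in untreated wild type cells (1.00 ± 0.086, adjusted p = 7.83e-06). The replicative helicase subunits Mcm6 and Mcm4 were 1.83-fold and 1.78-fold higher. The division marker Mki67 read 1044.1, 1187.1 and 1143.6 in untreated floxed cells and 587, 551 and 578 in untreated wild type cells (0.96 ± 0.10, adjusted p = 3.9e-05), and the mitotic cyclin Ccnb2 was 2.28-fold higher (1.19 ± 0.15, adjusted p = 0.000148).

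The 2 cell cycle genes that were lower were Ccnd1, a cyclin of the G1 phase (-1.07 ± 0.091, adjusted p = 7.31e-06), and Cdkn1b, the inhibitor p27 (-0.82 ± 0.098, adjusted p = 0.000113). With the drug 12 replication genes and 12 cell cycle genes were higher in floxed cells; 11 and 10 of the members above were higher in both comparisons. The medians stayed between 0.43 and 0.72 under the 3 other scalings.

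Genes of glycolysis and the response to low oxygen had 9 higher and 0 lower of 19, with a median of 0.44. Car9, a carbonic anhydrase that hypoxia-inducible factors switch on, read 1251.8, 1207.7 and 1127.2 in untreated floxed cells and 263, 241 and 247 in untreated wild type cells (2.19 ± 0.088, adjusted p = 1.77e-08). Egln3, an oxygen sensor and itself a target, was 2.38-fold higher (1.25 ± 0.14, adjusted p = 6.55e-05), and the mitophagy gene Bnip3 2.29-fold higher (1.20 ± 0.093, adjusted p = 3.53e-06). All 9 were higher with the drug too. Mgarp, a mitochondrial protein outside the list, read 386, 381 and 380 in untreated floxed cells and 45.8, 43.4 and 52 in untreated wild type cells (2.66 ± 0.12, adjusted p = 3.32e-08), and its difference was larger with the drug (4.39, interaction 1.73). Cholesterol biosynthesis had 5 higher and 0 lower of 14, led by the sterol carrier Stard4 (0.64 ± 0.077, adjusted p = 0.000125). The calls of Fdft1, Insig1 and Sqle were lost in 9, 4 and 2 of 18 alternatives.

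Stress genes moved in both directions. Of 13 genes of the integrated stress response and heat shock, 4 were lower and 3 higher. The targets of the stress factor ATF4 that passed were lower: Chac1, which degrades glutathione, read 374, 401 and 420 in untreated floxed cells and 1602, 1491.9 and 1546.6 in untreated wild type cells (-1.92 ± 0.10, adjusted p = 1.48e-07). The pseudokinase Trib3 was 3.20-fold lower (-1.68 ± 0.11, adjusted p = 7.89e-07) and the asparagine synthetase Asns 2.12-fold lower (-1.09 ± 0.091, adjusted p = 6.32e-06). Of the chaperones in the list, Hspa1a, Hspa1b and Hspa5 were higher, with Hspa1b at 142, 120 and 118 in untreated floxed cells and 28.5, 21.3 and 27 in untreated wild type cells, at least 4.21-fold (1.78 ± 0.11, adjusted p = 5.84e-07), and Hspa5, a chaperone of the endoplasmic reticulum, 1.55-fold (0.63 ± 0.093). Hsph1 (0.02 ± 0.089, adjusted p = 0.929), Dnajb1 (-0.27 ± 0.095, adjusted p = 0.0877) and Hsp90aa1 (0.27 ± 0.10, adjusted p = 0.112) did not pass. Hspa1a and Hspa1b are near-identical copies, so their probes may read both.

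Immediate early genes, which also respond to cell handling, had 5 lower and 2 higher of 16. Fos read 221, 271 and 265 in untreated floxed cells and 943, 933 and 1024 in untreated wild type cells (-1.88 ± 0.11, adjusted p = 2.93e-07), and the mRNA-destabilising protein Zfp36 was 2.06-fold lower (-1.04 ± 0.083, adjusted p = 4.5e-06); Fosb (0.61 ± 0.086) and Jun (0.49 ± 0.12) were higher, Jun not without wild type replicate 2 (adjusted p = 0.0539). Of 19 targets of p53, 4 were lower and 2 higher, with Gadd45a at 2.02-fold lower (-1.01 ± 0.083, adjusted p = 5.5e-06). In the BCL2 family 2 of 12 were higher and 2 lower. The higher ones included the survival protein Bcl2 (0.72 ± 0.091, adjusted p = 0.000173), which has 2 probes and did not pass with them averaged (adjusted p = 0.92). Mcl1 was lower (-0.39 ± 0.075, adjusted p = 0.00371) and did not pass under median scaling.

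Stem and progenitor genes had 3 higher and 3 lower of 13, with a median of 0.13 that turned to -0.02 without normalization. Cd34, a surface protein of progenitors and mast cells, read 5506.4, 4810.6 and 4869.3 in untreated floxed cells and 1919.4, 1785.1 and 1811.1 in untreated wild type cells (1.45 ± 0.088, adjusted p = 4.09e-07), much as with the drug (1.40). Hoxa9, a progenitor factor, was 1.81-fold higher (0.86 ± 0.099, adjusted p = 8.76e-05). Hoxa10 also passed as higher (0.62) but lost its call in 6 of 18 alternatives. The 3 lower ones were Kit (-0.55), Procr (-0.43) and Gata2 (-0.34), none of which passed under median scaling.

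**Figure D4:**
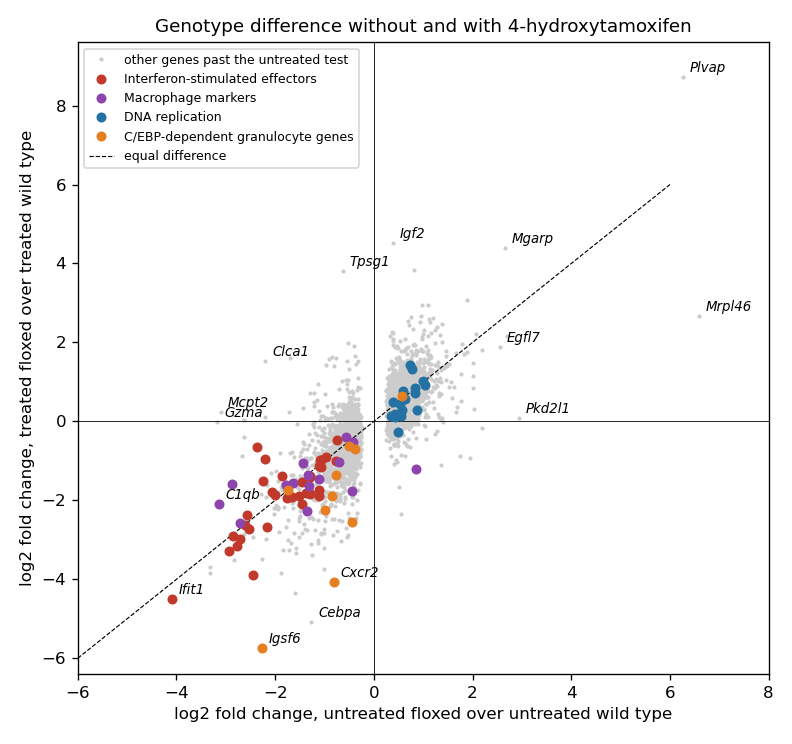
Each point is a gene past the untreated test, placed by its log2 fold change of floxed over wild type without the drug (horizontal axis) and with it (vertical axis); coloured points are members of 4 lists and the dashed line marks equal differences. Interferon-stimulated genes lie along the line, Cebpa, Igsf6 and Cxcr2 far below it, and Gzma, Mcpt2 and Pkd2l1 near 0 with the drug; Mrpl46 and Plvap have probes that read near 0 on some arrays of a group and brightly on others.

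The untreated and treated comparisons share no array, but they share the normalization and the fit. Their values for the genes past the untreated test are set against each other in the plot of both differences. Of the 1792 genes higher without the drug, 1249 were also higher with it (69.7% of the untreated and 36.7% of the treated list), 61 were lower with it and 482 did not pass there. Of the 1508 lower without the drug, 1052 were also lower with it (69.8% and 34.0% of the lists), 75 were higher and 381 did not pass. Among those at least 2-fold different without the drug, 120 of 146 higher and 213 of 247 lower genes passed with it in the same direction. The interaction was passed by 451 of the higher genes (25.2%) and 521 of the lower genes (34.5%); these genes were taken by their untreated difference, which is part of the interaction. Of these, 228 and 299 differed more in the same direction with the drug, and 223 and 222 differed less or the other way.

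**Figure D5:**
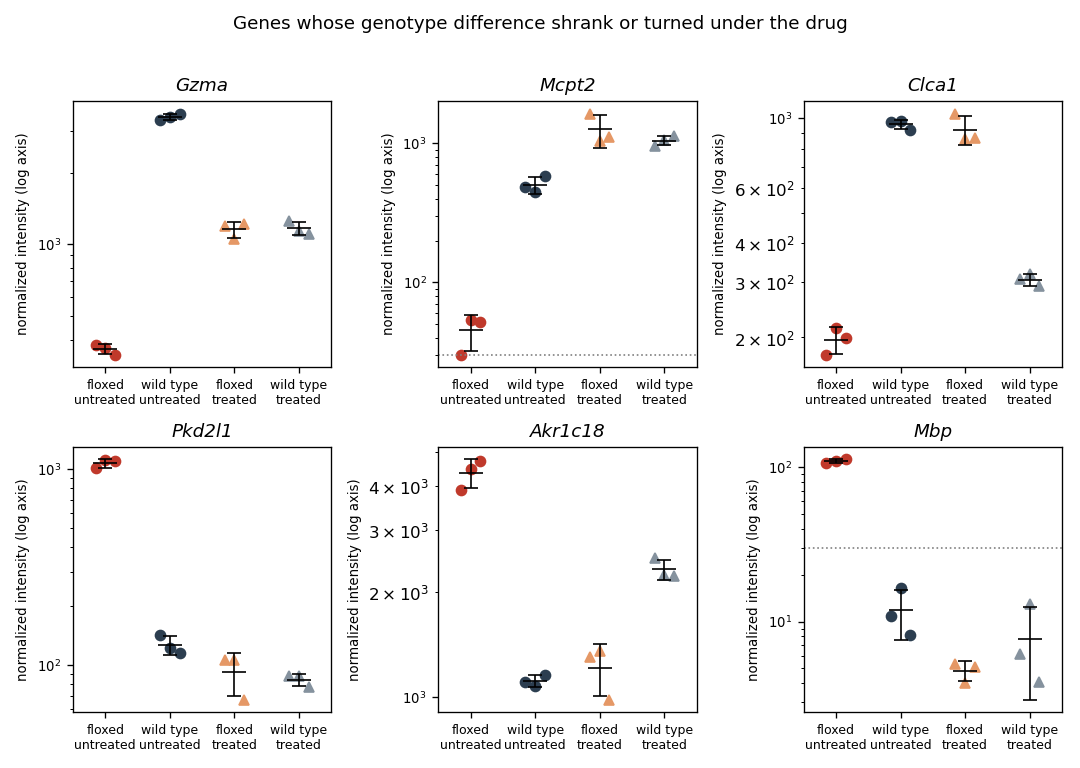
Normalized intensity (log axis) on each of 3 arrays a group, with the mean and SD in black, for 6 genes whose genotype difference shrank or turned under the drug. The untreated floxed arrays stand apart from the untreated wild type arrays in every panel, while the treated groups (triangles) are close or reversed; the dotted line marks the background limit of 30.

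Some of the largest untreated differences did not pass, or ran the other way, with the drug, as the plot of 6 such genes shows. Gzma, granzyme A, a protease of cytotoxic lymphocytes, read 380, 370 and 345 in untreated floxed cells and 3313.9, 3416.7 and 3535.2 in untreated wild type cells, 9.02-fold lower (-3.17 ± 0.088, adjusted p = 1.92e-09). With the drug it read 1189.7, 1058 and 1224.2 in floxed cells and 1250.2, 1143.2 and 1107.7 in wild type cells (-0.0128 ± 0.088, adjusted p = 0.939). The 2 treated groups overlapped, and the interaction was 3.16 ± 0.12 (adjusted p = 3.18e-08). The other T and NK cell markers did not pass; Cd3e read 71.7, 55.1 and 55.1 in untreated floxed cells and 72.7, 67.1 and 58.7 in untreated wild type cells, and Nkg7 163, 200 and 198 in untreated floxed cells and 172, 158 and 188 in untreated wild type cells.

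Mcpt2, a chymase of mucosal mast cells, read 30.2, 53.9 and 51.8 in untreated floxed cells and 484, 444 and 584 in untreated wild type cells (-3.10 ± 0.19, adjusted p = 5.08e-07). With the drug the values were 1635.9, 1034.5 and 1105.1 in floxed and 962, 1049 and 1123.3 in wild type cells, which did not differ past the test (0.24 ± 0.19, adjusted p = 0.417). Clca1, a secreted regulator of chloride channels, was 4.58-fold lower without the drug (-2.20 ± 0.10, adjusted p = 4.04e-08) and 2.90-fold higher with it (1.54). Its untreated wild type arrays read 971, 979 and 918, and its treated wild type arrays 307, 319 and 291. Tpsg1, a transmembrane tryptase, read 351, 472 and 477 in untreated floxed cells and 697, 612 and 720 in untreated wild type cells (-0.63 ± 0.13, adjusted p = 0.00538), and 5716.2, 5590.8 and 4784.8 in treated floxed cells. Its interaction of 4.44 was the largest of any gene past the untreated test, and its untreated difference did not pass under median scaling.

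Pkd2l1, a cation channel, was the gene with the second largest rise by the rule used for naming. It read 1015, 1116.3 and 1100.2 in untreated floxed cells and 143, 122 and 116 in untreated wild type cells (2.94 ± 0.14, adjusted p = 7.37e-08), and 106, 106 and 66.2 in treated floxed cells. Akr1c18, which inactivates progesterone, read 3902.9, 4460.7 and 4715.3 in untreated floxed cells and 1103.2, 1075.9 and 1159.3 in untreated wild type cells (1.95 ± 0.12, adjusted p = 6.17e-07), and was lower in floxed cells with the drug (-0.94). Oosp1, a secreted oocyte protein, was 4.09-fold higher without the drug (2.03 ± 0.10, adjusted p = 1.03e-07) and 1.24-fold higher with it. Mbp, a myelin protein, was at least 3.65-fold higher (2.18 ± 0.14, adjusted p = 5.75e-07), and at background in both treated groups; the other probe of Mbp did not give the same call.

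The remaining genes with the largest rises included Egfl7, a secreted protein of blood vessels, at 4089.3, 4411.2 and 4416.6 in untreated floxed cells and 789, 666 and 698 in untreated wild type cells (2.56 ± 0.092, adjusted p = 9.17e-09). Il2ra, the alpha chain of the interleukin-2 receptor, read 452, 508 and 604 in untreated floxed cells and 107, 118 and 122 in untreated wild type cells (2.02 ± 0.14, adjusted p = 1.35e-06). Tnfrsf9, the costimulatory receptor 4-1BB, was 4.04-fold higher (2.01 ± 0.19, adjusted p = 1.98e-05), the nitric oxide synthase Nos2 4.01-fold (2.00 ± 0.12, adjusted p = 2.93e-07) and the serine protease Klk8 4.23-fold (2.08 ± 0.090, adjusted p = 3.18e-08). The largest fitted rise was that of Mrpl46, a mitochondrial ribosome gene, at 1441.1, 1384.2 and 1519.4 in untreated floxed cells and -2, 0 and 0 in untreated wild type cells, at least 48.3-fold higher (6.58 ± 1.74, adjusted p = 0.0232). Its probe switched between background and bright among treated replicates, with 2.08, 1475.5 and 1780.3 in treated floxed cells, and the call was lost in 7 of 18 alternatives, including without any 1 of the 6 arrays (adjusted p = 0.0575 to 0.0676). The largest interactions also included Igf2, a growth factor, which differed by 0.38 without and 4.51 with the drug; the untreated call was lost in 8 of 18 alternatives, among them without replicate 2 or 3 of either group (adjusted p = 0.0568 to 0.0928).

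Among the 12 lowest genes outside the interferon and macrophage lists, Rimkla, an enzyme that joins glutamate to N-acetylaspartate, read 25.5, 38.1 and 35.2 in untreated floxed cells and 450, 482 and 470 in untreated wild type cells (-3.31 ± 0.12, adjusted p = 9.17e-09). Defb40, a beta-defensin, read 30.2, 17.6 and 20.2 in untreated floxed cells and 275, 245 and 250 in untreated wild type cells (-2.83 ± 0.12, adjusted p = 3.32e-08). Both were lower in floxed cells with the drug as well, at -3.84 and -3.50. Of the 12 lowest genes in all, 10 passed with the drug in the same direction, and 5 passed the interaction; of the 12 highest, 8 and 8 did.

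The genes nearest to Cebpa on its chromosome were read as a group. Of the 15 measured genes on each side, 1 was higher and 3 lower, beside 9.39% and 7.90% of all genes, with a median of -0.07. These were Faap24, of the Fanconi anaemia pathway (0.49 ± 0.093, adjusted p = 0.00323), the cytoskeletal Rhpn2 (-0.49 ± 0.10, adjusted p = 0.00547), Cebpg (-0.45 ± 0.11, adjusted p = 0.0169) and Wtip, an adaptor protein (-0.43 ± 0.10, adjusted p = 0.0134). Rhpn2, Cebpg and Wtip did not pass under median scaling, Wtip also without floxed replicate 3 or wild type replicate 2 or 3 (adjusted p = 0.0515 to 0.0583), and Faap24 not with its probes averaged (adjusted p = 0.283). Of 4 measured sex-linked genes, 3 Y-linked ones were higher in untreated floxed cells, with Eif2s3y at 253, 263 and 289 in untreated floxed cells and 143, 158 and 144 in untreated wild type cells (0.79 ± 0.12, adjusted p = 0.000807). Uty (0.56 ± 0.098) and Kdm5d (0.54 ± 0.11) were higher by less, Kdm5d not without normalization between arrays (adjusted p = 0.0696). The Y-linked genes lay above background in both groups, and Xist, which is transcribed from the inactive X chromosome, read 108, 123 and 126 in untreated floxed cells and 125, 135 and 135 in untreated wild type cells without passing (-0.13 ± 0.10, adjusted p = 0.493). The 3 Y-linked genes were higher in floxed cells with the drug too, and their part in the other results was not tested. Of 7 housekeeping genes 2 were higher, Hprt (0.45 ± 0.094, adjusted p = 0.00589) and Pgk1 (0.58 ± 0.13, adjusted p = 0.00993).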

How the data were processed

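The values deposited by the authors, from single-dye arrays, look like linear, background-subtracted probe intensities, a reading taken from the values themselves. Per the labels, Trizol and RNeasy served to extract the RNA, and the dye was a cyanine, given as Cy5 in the label field and as Cy5.5 in the protocol. Scanner settings, and whether arrays were normalized earlier, are not stated in the material used. The platform annotation named the probes: 21876 of 26423 had 1 gene symbol and 4547 had none, giving 19084 genes, with the probe of highest mean standing for a gene.

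Intensities of the 12 cultured arrays were quantile normalized, transformed as log2(intensity + 16) and fitted by lmFit and eBayes of limma 3.58.1 under R 4.3.3 (1 mean per group, two-sided, Benjamini-Hochberg over all probes, threshold 0.05). Fold changes on this scale understate the change of dim genes. Named genes were the 12 highest and 12 lowest changes past the test whose arrays did not overlap and where neither untreated group spanned background and bright (arrays on both sides of 30 and more than 4-fold apart, which left out genes such as Plvap and Foxj1), the 5 largest interactions, and up to 6 members of each of 37 lists (any member of the C/EBP, interferon and macrophage lists); members named as not past the test were added for context. The comparison, the members and the lists were chosen with earlier results of these data known. The script was tested on simulated data. Replicate numbers showed no clear pairing of untreated floxed with untreated wild type arrays. Deviations of same-numbered arrays correlated at 0.064, -0.233 and 0.083, and those of differently numbered arrays at -0.228 to 0.191. With 3 arrays a group this cannot exclude pairing, and pairing of treated with untreated arrays was not examined. The number of arrays limits the precision.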

Additional observations from a re-analysis of the deposited data

Results flagged for a closer look

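For 76 named genes the genotype difference with the drug differed from that without it, by the interaction term of limma at an adjusted p under 0.05. Values in brackets are the treated minus the untreated log2 fold change of floxed over wild type. Of all genes 6.41% passed with a positive and 6.58% with a negative value.

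Genes lower in untreated floxed cells that differed more with the drug numbered 33. The larger interactions among them were those of Cebpa (-3.80), Igsf6 (-3.47), Cxcr2 (-3.26), Id1 (-2.72), Perp (-2.35), Gadd45a (-1.82), Slc6a4 (-1.74), Btg2 (-1.45), Ifi27l2a (-1.45), S100a9 (-1.39), Il7r (-1.37), Csf1 (-1.32), Hmox1 (-1.32), Lcn2 (-1.26), Nfil3 (-1.23), Il18r1 (-1.22) and Cd86 (-1.05). The smaller ones were those of Ngp (-1.05), Ccl6 (-0.92), Slc40a1 (-0.92), Chac1 (-0.88), Zfp36 (-0.80), Dhx58 (-0.79), Siglecf (-0.77), Defb40 (-0.67), Unc93b1 (-0.64), Gbp2 (-0.62), Iigp1 (-0.62), Bmf (-0.61), Ccl3 (-0.60), Ptger4 (-0.57), Irgm1 (-0.50) and H2-Eb1 (-0.39).

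Another 8 genes lower in untreated floxed cells differed less with the drug: Gzma (3.16), Slfn5 (1.73), C1qa (1.29), Cxcl10 (1.24), C1qb (1.05), Pf4 (0.78), Trex1 (0.72) and Psmb10 (0.57). For 10 genes lower without the drug the fitted difference had the opposite sign with it: Tpsg1 (4.44), Clca1 (3.73), Mcpt2 (3.34), Mitf (2.50), Kit (2.07), Cma1 (1.81), Cebpg (1.06), Gfi1b (1.01), Vwf (0.68) and Psme1 (0.63).

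Of genes higher in untreated floxed cells, 10 differed more with the drug: Igf2 (4.13), Mgarp (1.73), Ltc4s (1.11), Idi1 (0.84), Lif (0.82), Prg2 (0.80), Fdft1 (0.76), Ankrd37 (0.68), Insig1 (0.50) and Hspa5 (0.48). A further 10 differed less: Pkd2l1 (-2.84), Oosp1 (-1.72), Hspa1a (-1.30), Hspa1b (-1.25), Nos2 (-1.16), Il2ra (-0.87), Egfl7 (-0.67), Mcm6 (-0.59), Hoxa9 (-0.53) and Ms4a2 (-0.53). For 5 the fitted difference had the opposite sign with the drug: Akr1c18 (-2.89), Mbp (-2.36), Adgre1 (-2.05), Ptgs2 (-1.01) and Ikbke (-0.72).

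Outside the named genes, 306 of 4547 probes without a gene symbol passed the untreated test (6.73%), 142 higher and 164 lower in floxed cells.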

How the results depend on the processing

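Quantile normalization was replaced by other scalings, the offset by 50, and dim probes were removed; each array was also left out in turn. Under median scaling 778 probes were lower and 1494 passed the interaction. Without normalization between arrays 1392 probes were higher and 2752 lower. At least 2-fold different were 174 higher and 299 lower probes. Leaving out 1 array gave 1538 to 2019 higher and 1345 to 1720 lower probes, 2288 to 2893 past the interaction, 34 to 37 interferon-stimulated and 14 macrophage genes lower, 8 to 9 granulocyte genes lower, 12 to 14 cell cycle, 14 to 17 replication and 9 to 10 glycolysis genes higher. With the replicate number as a block, 1817 probes were higher and 1593 lower. List medians more than 0.1 from 0 that reversed under median scaling were 0.0089 (interferon receptors and signalling), 0.115 (IgE receptor), 0.143 (histamine and eicosanoid) and 0.0058 (MHC class II); without normalization, -0.0185 (stem and progenitor) and -0.0083 (eosinophil). Of 203 named genes, 141 kept their call in all alternatives run, 62 lost it in at least 1 (45 of them under median scaling) and 0 reversed. The cause was not tested. Genes near an intensity of 30 are limited by background.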
